A study of Mus musculus with 18 samples.

Results

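The mitochondrial ribosomal protein genes were taken as every gene whose symbol begins with Mrpl or Mrps followed by a digit, which gave 76 of the 22609 gene symbols in each library. By symbol, 47 of them are named for the large subunit of the mitochondrial ribosome and 29 for the small subunit. The name does not always give the place of the protein, as told below for Mrps18a and Mrps36. Their RNA was measured in the heart, the kidney and the liver of mice of the inbred strain C57BL/6J, all wild type, and the labels name no altered allele in any group. From an age of 4 weeks the mice ate either standard chow or a ketogenic diet, whose make-up is given as 90% fat, 9.7% protein and 0.3% carbohydrate, for 21 days. Each of the 6 groups (ketogenic and chow, in each of 3 organs) held 3 libraries, numbered as biological replicates. The sources used here do not give the make-up of the chow or say whether organs came from the same animals. The series is titled for the ketogenic diet and senescence in several organs, and the comparison made in each organ was ketogenic against chow.

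Mitochondria carry their own ribosome, which translates the few proteins encoded by mitochondrial DNA, all of them core subunits of the respiratory chain and the ATP synthase. Every protein of that ribosome is encoded in the nucleus, made in the cytosol and imported, so the organelle depends on the nuclear genes described here. The small subunit reads the messenger RNA, and the large subunit joins amino acids and holds the exit tunnel. Many of the proteins have bacterial counterparts, while others, among them Mrpl41, Mrpl50 and Mrpl53, are found in mitochondrial ribosomes only. Nuclear genes for mitochondrial proteins are known targets of the transcription factors NRF-1, GABP (an ETS factor), YY1 and the estrogen-related receptor ERRα, and of the coactivators PGC-1α and PGC-1β.

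The libraries held 16135276 to 23835383 estimated counts, of which the 76 genes took 0.181 to 0.430%. A single one of these genes had between 125 and 4485 counts in a library, and all 76 passed the filter on low counts in each organ. In both heart and liver the first 2 ketogenic libraries were nearly as alike as counting noise allows, with a median chi-square over genes of 0.666 and 0.698 where pure counting gives 0.455 and the other 16 pairs within groups gave 1.23 to 4.19. Each of these pairs was counted as 1 sample in a mean ± SD (n = 2), while the tests used all libraries unless stated. Chow heart replicate 3 stood apart, since its 5 markers of atrial muscle summed to 12684 CPM (counts scaled to a common library total) against at most 132 CPM in the other 5 heart libraries. It also stood apart in the sums of 8 fat cell markers (279.8 CPM, the other heart libraries 8.75 to 15.1 CPM), 7 fibroblast markers (4887 CPM, the other chow hearts 3272 and 3321 CPM) and 8 markers of dividing cells (52.6 CPM, the other chow hearts 134 and 139 CPM). The defining markers matched the labels: 7 markers of heart muscle summed to 56321 to 74452 CPM in heart and to at most 18.5 CPM elsewhere, 7 of kidney tubules to 29383 to 39491 CPM in kidney and to at most 17.6 CPM elsewhere, and 7 of hepatocytes to 70393 to 123662 CPM in liver and to at most 2589 CPM elsewhere.

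The start regions of 7 of the genes are shown first because the results below return to them. Mrpl33 and Mrpl53 rose most in liver and fell in heart, Mrps18a, Mrps18b and Mrps18c are 3 forms of 1 ribosomal protein with different calls, and Mrpl46 and Mrps11 share a start region. The sequences are RefSeq's on GRCm38, read 5′ to 3′ along the gene, from 250 bases before the annotated start to 30 bases into the transcript. Capitals mark the letters searched for, on either strand: the NRF-1 core GCATGCGC, the ETS motif CCGGAAG and the YY1 motif AAGATGGC. Positions count the first base of the transcript as 1 and the base before it as -1, and they give the leftmost base of a match.
Mrpl33: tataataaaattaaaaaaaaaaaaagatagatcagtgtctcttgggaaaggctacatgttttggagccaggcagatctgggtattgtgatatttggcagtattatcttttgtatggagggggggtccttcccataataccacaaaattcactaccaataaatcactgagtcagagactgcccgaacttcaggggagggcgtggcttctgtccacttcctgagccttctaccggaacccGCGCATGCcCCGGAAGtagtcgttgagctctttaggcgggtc
Mrpl53: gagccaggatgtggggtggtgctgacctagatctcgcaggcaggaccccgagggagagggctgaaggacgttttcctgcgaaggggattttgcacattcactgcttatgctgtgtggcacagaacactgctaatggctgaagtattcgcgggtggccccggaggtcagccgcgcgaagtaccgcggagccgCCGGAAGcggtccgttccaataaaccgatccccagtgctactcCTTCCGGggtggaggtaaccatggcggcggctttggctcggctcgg
Mrps18a: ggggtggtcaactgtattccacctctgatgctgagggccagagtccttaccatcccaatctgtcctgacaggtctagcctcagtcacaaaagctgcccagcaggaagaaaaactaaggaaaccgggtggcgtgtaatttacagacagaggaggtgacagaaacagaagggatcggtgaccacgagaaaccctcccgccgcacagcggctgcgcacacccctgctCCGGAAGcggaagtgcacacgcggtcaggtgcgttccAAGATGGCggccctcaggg
Mrps18b: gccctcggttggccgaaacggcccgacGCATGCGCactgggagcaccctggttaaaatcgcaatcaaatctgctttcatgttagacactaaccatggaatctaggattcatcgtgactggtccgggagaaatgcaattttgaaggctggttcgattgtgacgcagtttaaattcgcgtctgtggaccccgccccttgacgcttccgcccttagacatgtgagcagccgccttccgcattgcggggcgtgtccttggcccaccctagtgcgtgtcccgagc
Mrps18c: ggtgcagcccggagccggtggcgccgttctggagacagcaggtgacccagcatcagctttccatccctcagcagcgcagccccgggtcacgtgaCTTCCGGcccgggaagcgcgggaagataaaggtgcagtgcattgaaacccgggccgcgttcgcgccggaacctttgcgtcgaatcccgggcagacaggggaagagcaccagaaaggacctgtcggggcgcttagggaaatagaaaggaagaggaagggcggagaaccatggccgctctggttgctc
The windows lie at chr5:31613701-31613980 (plus strand), chr6:83108858-83109137 (plus), chr17:46110754-46111033 (plus), chr17:35916411-35916690 (minus) and chr5:100798509-100798788 (plus). Mrpl33 held the NRF-1 core from position -12, read from the opposite strand, and an ETS match from position -3. Mrpl53 held ETS matches from positions -59 and -16. Mrps18a held an ETS match from -26 and a YY1 match from position 12, Mrps18b the NRF-1 core from -223, and Mrps18c an ETS match from -156. None of the 3 Mrps18 windows printed here held the same set of matches as another. In the longer windows counted below, however, the ETS letters occurred in all 3 forms, Mrps18b among them.

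Mrpl46 and Mrps11 lie head to head on opposite strands, with their annotated starts at both ends of a stretch of 43 bases. The stretch is shown here in capitals with 20 bases on either side. Together these 83 bases lie at chr7:78783069-78783151 on GRCm38.
Mrpl46-Mrps11: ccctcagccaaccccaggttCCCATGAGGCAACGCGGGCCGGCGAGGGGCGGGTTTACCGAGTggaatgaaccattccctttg
RefSeq's table held 67 of the 76 genes by symbol. Over their 73 windows of 300 bases, which run 20 bases further than those printed, the ETS letters occurred in 24 of 67 genes (35.8%) and in 9.93% of all 27025 genes of the table. The YY1 letters occurred in 12 genes (17.9%, all genes 3.19%) and the NRF-1 core in 8 (11.9%, all genes 3.05%). The letters AAGGTCA, searched for as the ERR motif, occurred in 4 genes (5.97%, all genes 5.38%). Matches are descriptions of letters and not of bound factors.

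In liver the ketogenic diet went with higher RNA for most of the mitochondrial ribosomal protein genes. Of 76 genes, 52 passed as higher, 3 passed as lower and 21 did not pass (edgeR's quasi-likelihood test, Benjamini-Hochberg adjusted p under 0.05), where 24.3% of the 12947 genes tested in liver passed as higher and 23.3% as lower. Their median log2 fold change was 0.41, against 0.003 over all tested genes. The summed level of the 76 genes was 2571, 2621 and 2295 CPM in the ketogenic libraries and 1897, 1887 and 1792 CPM in the chow libraries, so that every ketogenic library lay above every chow library. Gene by gene, 56 had all 3 ketogenic libraries above all 3 chow libraries (background 29.1%) and 4 had them all below (background 28.1%). Genes named for either subunit took part, with 32 of 47 named for the large and 20 of 29 named for the small subunit higher, at medians of 0.42 and 0.40.

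**Figure D1:**
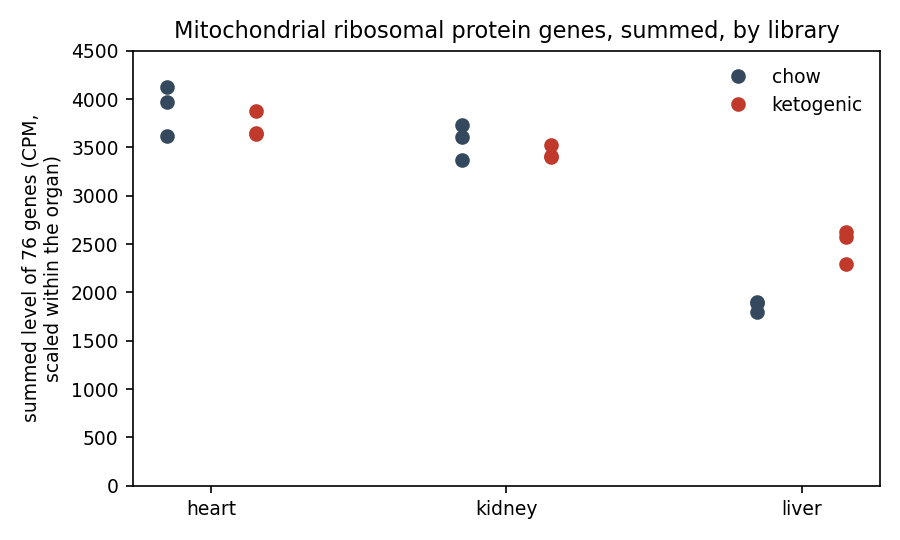
Summed level of the 76 mitochondrial ribosomal protein genes in each library (CPM, scaled within the organ), by organ and diet, each point 1 library. Only in liver do the ketogenic libraries (2295 to 2621 CPM) lie clear of the chow libraries (1792 to 1897 CPM).

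**Figure D2:**
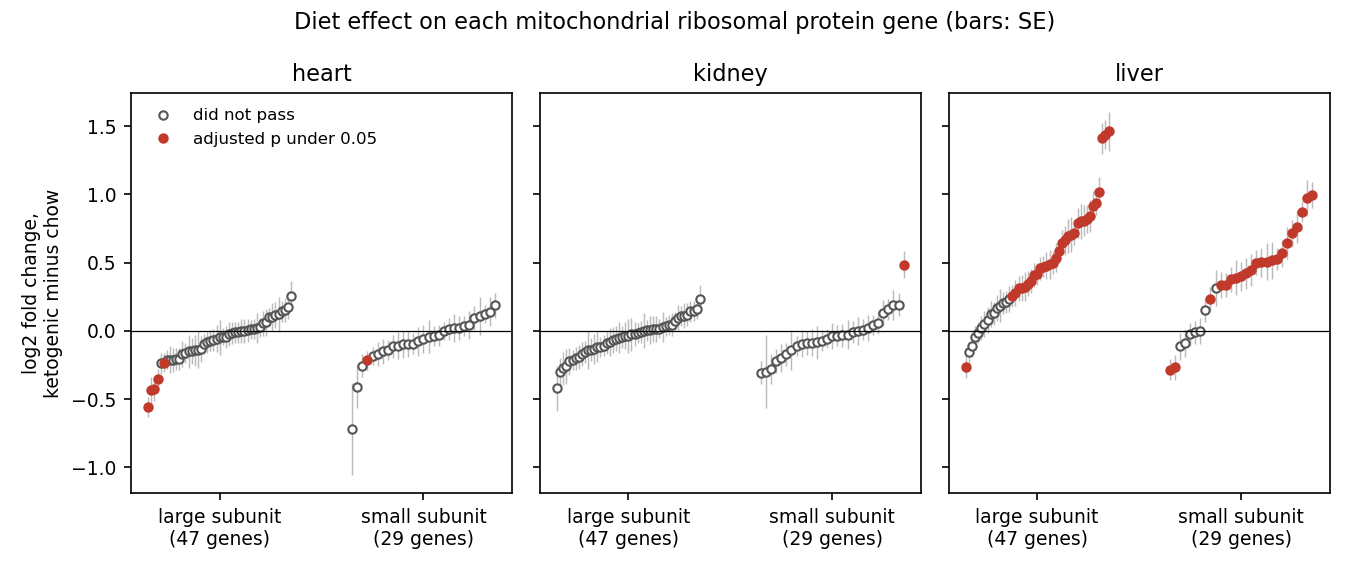
Log2 fold change, ketogenic minus chow, of each gene in heart, kidney and liver, with bars of 1 SE and filled points for genes past an adjusted p of 0.05. Genes are sorted within the large and the small subunit, as named by symbol. In liver 52 genes lie above 0 and pass, in heart 6 pass below 0, and in kidney 1 passes above 0.

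Among the genes of the large subunit, Mrpl33 had the steepest rise in liver. Mrpl33, a small protein with a bacterial counterpart, is encoded at chr5:31916324-31925017 on mm9, the build of the deposited counts, with 466 exonic bases. It stood at 40.5, 38.3 and 29.6 CPM on the ketogenic diet and at 12.7, 15.4 and 11.2 CPM on chow. The lowest ketogenic library lay well above the highest chow library, and the means were 34.5 ± 6.93 (SD, n = 2) and 13.1 ± 2.15 (SD, n = 3). Its log2 fold change was 1.46 (SE 0.14, edgeR adjusted p = 2.46e-05), a 2.75-fold rise.

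Mrpl53 and Mrpl41 rose almost as far, and both belong to the proteins found only in mitochondrial ribosomes. Mrpl53 (mm9 chr6:83059102-83059926) stood at 50.2, 49.4 and 42.2 CPM on the ketogenic diet against 19.1, 17.9 and 15.3 CPM on chow, a log2 fold change of 1.44 (SE 0.11, edgeR adjusted p = 2.11e-06). Mrpl41 (mm9 chr2:24827990-24830618) stood at 35.5, 35.9 and 28.3 CPM against 11.5, 13.5 and 12.5 CPM, a log2 fold change of 1.41 (SE 0.11, edgeR adjusted p = 3.63e-06). In both genes ketogenic replicate 3 was the lowest of its group and still more than the highest chow library. Mrpl53 shares 14 of its 620 exonic bases with Ccdc142 on the same strand, and Ccdc142 rose in liver too, by 0.94 on the log2 scale (SE 0.11, edgeR adjusted p = 4.08e-05), so a small part of the reads of either gene could have been divided between them.

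Mrpl50, another protein without a bacterial counterpart, rose from 36.5, 37.0 and 36.9 CPM on chow to 73.3, 75.7 and 62.5 CPM, a log2 fold change of 0.94 (SE 0.087, edgeR adjusted p = 9.39e-06). Its 3 chow libraries were nearly equal, and its ketogenic libraries lay far above them. Mrpl12 forms the stalk to which translation factors bind, and Mrpl11 sits at the stalk's base. Mrpl12 was the most abundant of the 76 in liver per length, and it stood at 142, 145 and 110 CPM against 72.3, 84.1 and 72.8 CPM, a log2 fold change of 0.79 (SE 0.11, edgeR adjusted p = 0.000172). Mrpl11 stood at 31.8, 31.1 and 24.9 CPM against 16.1, 18.4 and 15.7 CPM, a log2 fold change of 0.81 (SE 0.11, edgeR adjusted p = 0.000169). Both stalk genes thus differed without overlap of the libraries. Mrpl14 and Mrpl20, both with bacterial counterparts, had log2 fold changes of 1.02 (SE 0.11) and 0.82 (SE 0.10).

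In the small subunit Mrps24 and Mrps18c had the smallest adjusted p. Mrps24, the counterpart of a protein at the entry of the messenger RNA, stood at 56.9, 58.9 and 53.0 CPM on the ketogenic diet and at 30.7, 30.2 and 31.3 CPM on chow (log2 fold change 0.87, SE 0.077, edgeR adjusted p = 6.76e-06). Mrps18c rose from 15.1, 14.1 and 14.8 CPM to 30.3, 30.9 and 26.5 CPM (log2 fold change 1.00, SE 0.093, edgeR adjusted p = 9.75e-06). The chow libraries of either gene were within about 1 CPM of each other, which is small beside the rise. The head-to-head pair did not rise alike in size: Mrpl46 stood at 27.2, 28.0 and 22.9 CPM against 14.4, 14.3 and 12.7 CPM (log2 fold change 0.92, SE 0.10, edgeR adjusted p = 3.90e-05). Mrps11 stood at 17.2, 16.1 and 14.7 CPM against 11.9, 12.8 and 8.93 CPM (log2 fold change 0.51, SE 0.14, edgeR adjusted p = 0.00960). Whether these rises differ was not tested.

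Only Mrps2, Mrpl4 and Mrps5 passed as lower in liver, each by little. Mrps2, a protein of the small subunit near the messenger RNA exit, stood at 33.2, 34.4 and 34.5 CPM on the ketogenic diet and at 41.9, 39.8 and 42.8 CPM on chow (log2 fold change -0.29, SE 0.076, edgeR adjusted p = 0.00943). Mrpl4, which lines the exit tunnel, had a log2 fold change of -0.26 (SE 0.084, edgeR adjusted p = 0.0234), and Mrps5, which lies near the messenger RNA entry, one of -0.27 (SE 0.094, edgeR adjusted p = 0.0352). All 3 lost their call in edgeR when ketogenic replicate 1 was left out, and 1 of the 3 passed without chow replicate 1. With ketogenic replicates 1 and 2 summed to 1 sample, 46 of the 76 were higher and 1 was lower (background 19.2 and 17.6%), and all 46 were among the 52. The 21 genes that did not pass had log2 fold changes between -0.16 and 0.32, which for Mrpl38 and Mrps36 at those ends still came without overlap of the libraries.

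The rise in liver moved with gene length. Among all genes tested in liver, 54.5% of the 1007 with up to 1000 exonic bases passed as higher, 32.4% of the 2897 with 1000 to 2000 and 18.3% of the 9043 with more than 2000. Mitochondrial ribosomal protein genes are short, with a median of 1052 exonic bases against 2280 for all symbols. Within those classes 25 of 32 (78.1%), 19 of 33 (57.6%) and 8 of 11 (72.7%) of them were higher, a share above that of all genes in each class, though no test was made of that difference. In the shortest class, however, their median log2 fold change of 0.48 was close to the 0.46 of all genes. In the longer classes the medians were 0.34 against 0.12 and 0.41 against -0.06. When a smooth trend on exon length was removed from each library before the test, 29 were higher and 14 lower (background 22.7 and 24.5%), at a median log2 fold change of 0.16. All 29 were among the 52, and Mrpl33, Mrpl53, Mrpl41, Mrps24, Mrpl50 and Mrps18c were among them. The labels accept RNA with an integrity number above 4 without giving the values of single libraries, and the part of RNA quality in the length trend was not tested.

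**Figure D3:**
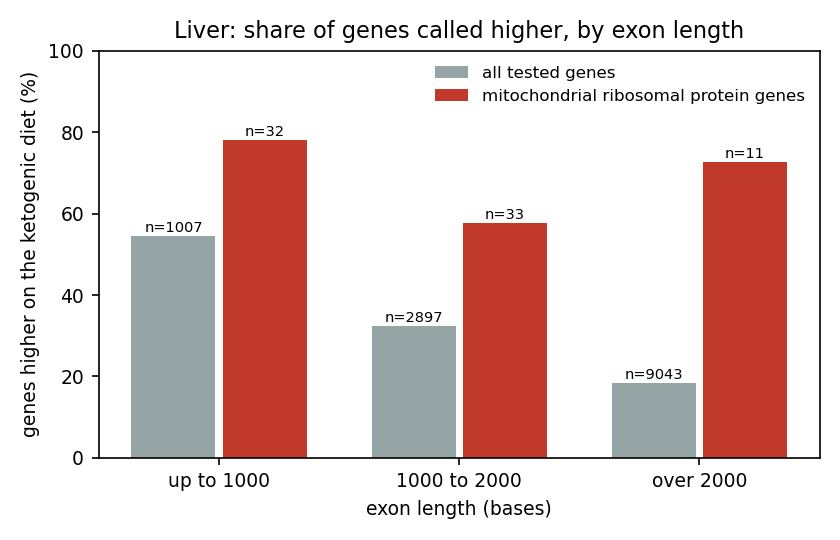
Share of genes that passed as higher on the ketogenic diet in liver (%), by exonic length in 3 classes, for all tested genes (grey) and for the mitochondrial ribosomal protein genes (red), with the number of genes above each bar. Short genes of any kind were higher more often (54.5%) than long ones (18.3%), and the share of the mitochondrial ribosomal protein genes lay above that of all genes in every class (57.6 to 78.1%). In the shortest class the median log2 fold changes were close (0.48 against 0.46 for all genes).

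Markers of cell types moved in the same liver libraries. Of 7 hepatocyte markers, 5 were lower and none higher on the ketogenic diet, among them Alb (albumin) and the urea cycle enzymes Cps1 and Ass1, and their sum was 70393 to 76062 CPM against 114523 to 123662 CPM on chow. All 8 markers of dividing cells were lower, with sums of 6.85 to 11.4 CPM against 101 to 150 CPM. Of 7 fibroblast markers 4 were lower and 1 higher, and of 8 macrophage markers 2 were higher. Of the 8 fat cell markers 4 could be tested, and 3 of them were higher. Cidec, a lipid droplet protein, stood at 25.7 to 31.0 CPM against 0.419 to 0.680 CPM on chow, Cfd (adipsin) at 56.3 to 116 against 0.0451 to 0.0839 CPM, and Pparg at 16.1 to 21.7 against 6.63 to 11.7 CPM. The fat cell hormone genes Lep and Retn were at 0 in all 6 liver libraries, Adipoq in 4 and Plin1 in 5 of them, and none of the other markers counted here was at 0 in all 6. The part of these shifts in the higher share of mitochondrial ribosomal RNA was not tested, and in whole tissue fewer cells of a type and less RNA per cell cannot be told apart.

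Other protein machines encoded by nuclear genes moved alongside in liver, where 24.3% of all tested genes passed as higher and 23.3% as lower. The proteins of the cytosolic ribosome (genes named Rpl and Rps) had 57 of 80 tested genes higher and 6 lower, with a median log2 fold change of 0.63. The nuclear subunits of oxidative phosphorylation had 50 of 79 higher and 3 lower, with a median of 0.44. The median of the mitochondrial ribosomal protein genes, 0.41, was close to the latter. Among all liver genes with up to 1000 exonic bases 54.5% passed as higher, at a median of 0.46. The part of gene length in the values of the other sets was not tested. In heart the 3 sets had medians of -0.19, -0.04 and -0.05, and in kidney of -0.13, -0.20 and -0.04, in the same order. In heart 29 of 82 tested genes of the cytosolic ribosome were lower and 2 higher. Of 83 oxidative phosphorylation genes 10 were lower and 5 higher there (background 12.2% lower and 12.5% higher). These side-by-side values carry no test of a difference between the sets.

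In heart 6 of the 76 genes were lower on the ketogenic diet and none was higher, where 12.2% of 13411 tested genes passed as lower and 12.5% as higher, so the share that fell was near the background. Heart had a length trend too. Of all heart genes with up to 1000 exonic bases 23.4% passed as lower and 3.63% as higher. Among the mitochondrial ribosomal protein genes of that length, 4 of 32 (12.5%) were lower. The median log2 fold change was -0.05, against -0.03 over all tested genes. At an unadjusted p under 0.05 in edgeR, 1 of the 76 was higher and 15 were lower. DESeq2 called none higher and 5 lower, of which 4 were among the 6. Shares over all genes were not counted for either. Gene by gene, 3 had all 3 ketogenic libraries above all 3 chow libraries (background 22.0%) and 15 had them all below (background 22.7%). Summed over the 76 genes, the level was 3646, 3637 and 3877 CPM on the ketogenic diet and 4129, 3965 and 3619 CPM on chow, and the groups overlapped. The 6 lower genes were Mrpl33, Mrpl53, Mrpl12, Mrpl20, Mrpl11 and Mrps24, and each of them was among the 52 that rose in liver.

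Mrpl33 fell most clearly in heart, from 76.5, 67.8 and 69.0 CPM on chow to 48.5, 45.8 and 50.5 CPM, a log2 fold change of -0.56 (SE 0.075, edgeR adjusted p = 0.00150). Mrpl53 fell from 61.7, 57.6 and 52.3 CPM to 41.7, 40.1 and 46.0 CPM, a log2 fold change of -0.43 (SE 0.086, edgeR adjusted p = 0.00874). For neither gene did a ketogenic library reach a chow library, and both kept their call whichever library was left out. Ccdc142, which overlaps Mrpl53, fell as well (log2 fold change -0.43, SE 0.11, edgeR adjusted p = 0.0220).

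The stalk protein gene Mrpl12 stood at 145, 142 and 148 CPM on the ketogenic diet and at 199.7, 185 and 171 CPM on chow (log2 fold change -0.35, SE 0.075, edgeR adjusted p = 0.0108). Mrpl20 stood at 18.1, 18.7 and 17.0 CPM against 25.0, 26.0 and 21.9 CPM (log2 fold change -0.43, SE 0.094, edgeR adjusted p = 0.0120). In both, chow replicate 3 was the chow library nearest to the ketogenic ones. Mrpl11 at the base of the stalk and Mrps24 passed narrowly, with log2 fold changes of -0.23 (SE 0.070, edgeR adjusted p = 0.0408) and -0.22 (SE 0.066, edgeR adjusted p = 0.0427). Each of Mrpl11, Mrpl12, Mrpl20 and Mrps24 lost its call when some single library was left out, and DESeq2 did not call Mrpl11 or Mrps24.

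**Figure D4:**
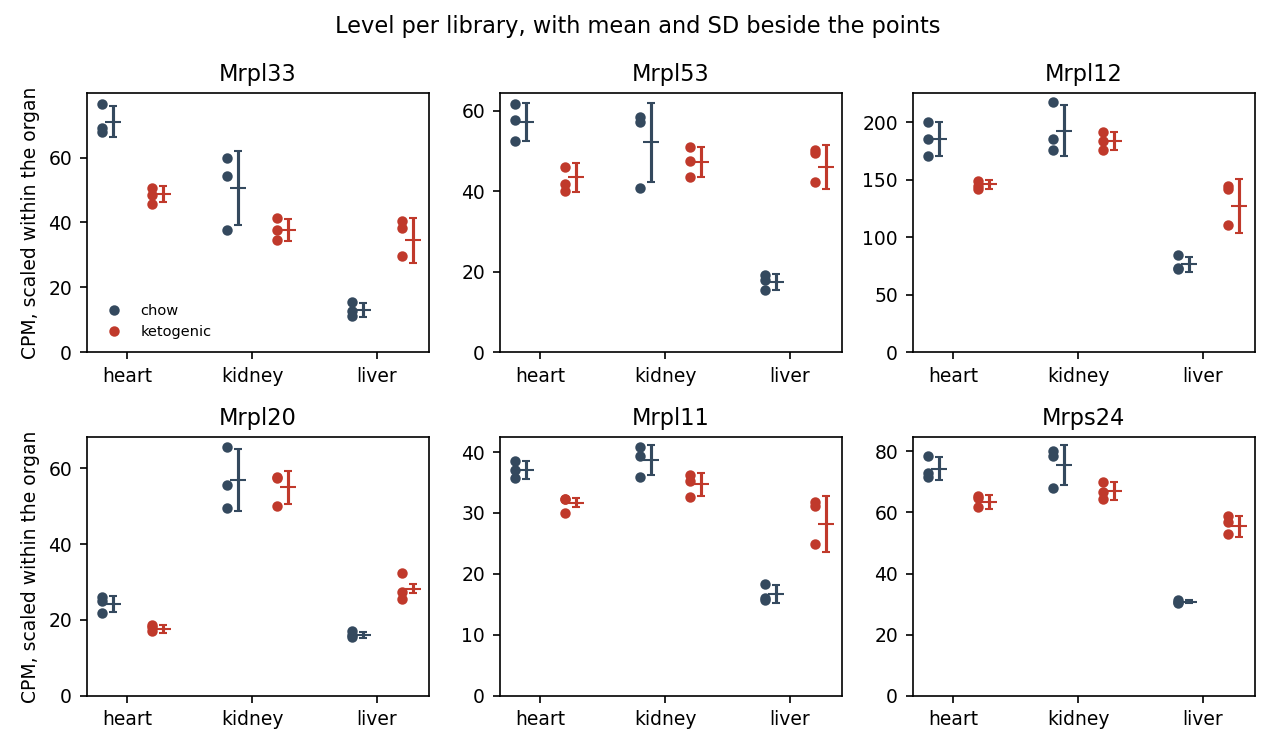
Level in each library (CPM, scaled within the organ) of the 6 genes that were lower in heart and higher in liver on the ketogenic diet, with the mean and SD beside the points (in heart and liver, ketogenic replicates 1 and 2 count as 1 sample). For Mrpl33 the ketogenic heart libraries lie at 45.8 to 50.5 CPM under the chow libraries at 67.8 to 76.5 CPM, and the ketogenic liver libraries at 29.6 to 40.5 CPM above the chow libraries at 11.2 to 15.4 CPM.

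The number of genes lower in heart depended on single libraries and on the scaling. Without chow replicate 3, the library that stood apart in atrial and other markers, 17 of the 76 were lower (background 17.0%), while without ketogenic replicate 1 or 2 it was 2 or 3 (background 5.57 and 5.64%). Scaling by total counts gave 25 lower (background 22.0%), summing ketogenic replicates 1 and 2 gave 3 (background 5.81%), and removing the length trend left Mrpl33 alone lower and 3 genes higher (background 11.0 and 11.6%). Mrps6 had the steepest estimate in heart without passing, at 21.8, 23.996 and 23.1 CPM on the ketogenic diet and 27.7, 26.7 and 58.4 CPM on chow (log2 fold change -0.72, SE 0.34, edgeR adjusted p = 0.182). Chow replicate 3 alone stood high there. It also stood high for Slc5a3, a transporter gene that shares 145 of the 780 exonic bases of Mrps6, with 57.2 CPM against 16.8 to 18.5 CPM in the other 5 heart libraries, so reads of the shared bases could have been divided between these genes.

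Markers of other cells also fell in the ketogenic heart libraries. Of 7 tested genes of red blood cells 5 were lower (sums of 1101 to 2571 CPM against 4538 to 6516 CPM on chow), of 7 fibroblast genes 5 (1491 to 1643 against 3272 to 4887 CPM), and all 8 macrophage genes and all 8 genes of dividing cells. None of these was at 0 in all heart libraries. Among the red blood cell genes, Hba-a1 and Hba-a2 had the same range in heart (449 to 1031 CPM against 1650 to 2594 CPM on chow). So did Hbb-b1 and Hbb-b2 (37.6 to 218 against 311 to 578 CPM). The 7 red blood cell genes are therefore not 7 separate measurements. Of 7 heart muscle markers 1, Myh6 (the heavy chain of adult ventricular myosin in the mouse), was higher. Their part in the lower levels of the 6 genes was not tested.

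In kidney 1 of the 76 genes passed, and it was higher: Mrps18b, a paralog of the bacterial protein S18. No gene passed as lower, where 3.59% of 14526 tested genes were higher and 5.45% lower, and the median log2 fold change was -0.04 against 0.001 over all tested genes. At an unadjusted p under 0.05, 9 of the 76 were lower, and DESeq2 also called none lower. Mrps18b stood at 20.8, 25.0 and 22.0 CPM on the ketogenic diet and at 15.5, 16.4 and 16.4 CPM on chow, so the groups did not overlap, and the means were 22.6 ± 2.17 (SD, n = 3) and 16.1 ± 0.499 (SD, n = 3). Its log2 fold change was 0.49 (SE 0.099, edgeR adjusted p = 0.0192), and leaving out a single library gave 0.41 to 0.54. Mrps18b no longer passed without ketogenic replicate 2, without ketogenic replicate 3 or without any one of the chow libraries, at adjusted p between 0.0505 and 0.0945 in edgeR.

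The summed level in kidney was 3411, 3521 and 3402 CPM on the ketogenic diet and 3736, 3367 and 3603 CPM on chow, with chow replicate 2 below all ketogenic libraries. Mrps25 came nearest to passing as lower, at 24.7, 23.8 and 22.6 CPM against 28.97, 27.9 and 31.1 CPM (log2 fold change -0.31, SE 0.082, edgeR adjusted p = 0.0502). Without ketogenic replicate 1, 2 genes were higher and 2 lower (background 11.3 and 11.8%), and without chow replicate 2, 3 were lower (background 3.44%). All 8 genes of dividing cells and 3 of 7 fibroblast genes were lower in the ketogenic kidney libraries, and none of these was at 0 in all of them. The 8 fat cell markers summed to 83.8 to 502 CPM on the ketogenic diet and 24.9 to 140 CPM on chow, and none of them passed. Their part in these values was not tested.

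The effect of the diet differed between liver and the other organs. In a model of all 18 libraries, 45 of the 76 genes had a lower diet effect in heart than in liver and 2 a higher one, where 16.0 and 16.7% of 15495 genes did. Between kidney and liver 43 were lower and 5 higher (background 13.0 and 16.3%). Between heart and kidney none passed in either direction in edgeR (background 2.66% higher and 2.78% lower), with 1 higher and 2 lower at an unadjusted p under 0.05 and 0 in either direction by DESeq2. With the length trend removed, 23 genes were lower and 10 higher in heart than in liver (background 14.5 and 15.6%), and 21 were lower and 9 higher in kidney than in liver (background 12.0 and 14.6%). With the near-identical ketogenic libraries summed, heart against liver kept 30 of the 45 and kidney against liver 37 of the 43. Shares over all genes were not counted in this summed fit, so these counts stand without a background.

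Mrpl33 had the largest difference in diet effect, -1.99 on the log2 scale for heart minus liver (SE 0.21, edgeR adjusted p = 4.61e-06) and -1.84 for kidney minus liver (SE 0.22, edgeR adjusted p = 1.41e-05). Mrpl53 followed with -1.83 (SE 0.17) and -1.53 (SE 0.17), and Mrpl41 with -1.59 (SE 0.16) and -1.49 (SE 0.16). Mrps24 differed by -1.06 and -1.001 (SE 0.099 each), Mrpl50 by -1.07 (SE 0.12) between heart and liver, and Mrps18c by -1.17 (SE 0.13) between kidney and liver. All of these kept their call whichever library was left out. Across the 76 genes the log2 fold changes in heart and in liver had a Pearson correlation of -0.49, those in kidney and liver of -0.54, and those in heart and kidney of 0.54. The libraries of an organ are shared by all points, and so is gene length, with which the fold changes of these genes had a Spearman correlation of 0.26 in heart, 0.49 in kidney and -0.27 in liver.

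**Figure D5:**
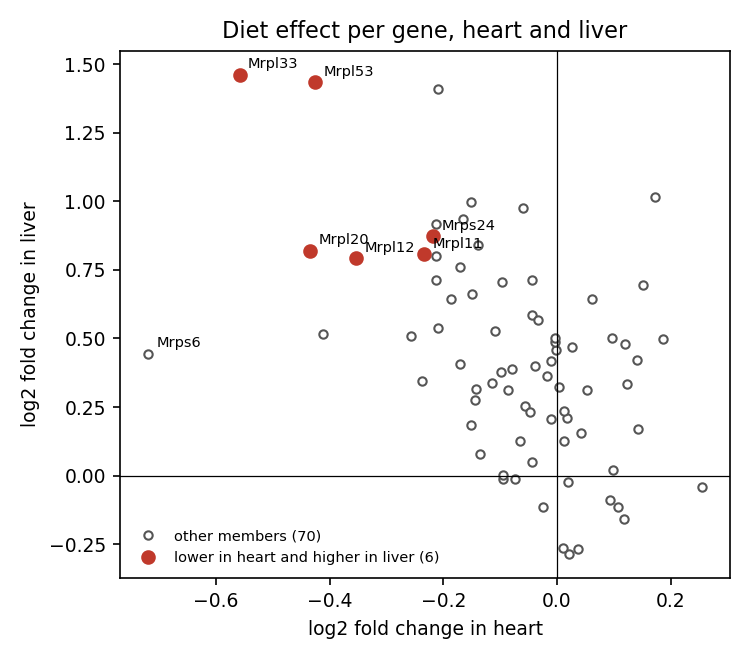
Log2 fold change (ketogenic minus chow) of each of the 76 genes in heart (x axis) and in liver (y axis). The 6 filled points, with heart values of -0.56 to -0.22 and liver values of 0.79 to 1.46, passed in both organs, and Mrps6 lies furthest left (-0.72) without passing in heart.

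The 3 forms of Mrps18, Mrps18a, Mrps18b and Mrps18c, descend from 1 bacterial protein, and in the mitochondrial ribosome each takes a place of its own, Mrps18a in the large subunit in spite of its name. Mrps18a and Mrps18c passed as higher in liver only and Mrps18b in kidney only, though no test was made between the forms. In liver Mrps18a rose from 17.2, 16.9 and 17.2 CPM to 30.4, 28.9 and 24.7 CPM (log2 fold change 0.71, SE 0.097, edgeR adjusted p = 0.000142), Mrps18c rose by 1.00, and Mrps18b stood at 25.7, 25.5 and 22.2 CPM against 28.5, 24.2 and 26.8 CPM with overlap of the groups (log2 fold change -0.11, SE 0.097, edgeR adjusted p = 0.360). In kidney Mrps18b was the form that rose, while Mrps18a and Mrps18c had log2 fold changes of -0.06 (SE 0.067) and -0.22 (SE 0.091) without passing. The difference in diet effect between kidney and liver passed for all 3, at 0.64 (SE 0.16) for Mrps18b, -0.73 (SE 0.15) for Mrps18a and -1.17 (SE 0.13) for Mrps18c. In heart none of the 3 passed, with log2 fold changes of -0.04, 0.11 and -0.15.

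Levels per length (RPKM, the CPM of a gene divided by its exonic kilobases, computed within each organ) gave the order of the genes. On chow the median over the 76 genes was 37.1 RPKM in heart, 36.0 in kidney and 20.1 in liver, and on the ketogenic diet 38.3, 35.8 and 25.1. The organs were not scaled to each other for these levels, so the medians do not compare organs. Mrpl42 led in chow heart with 295 ± 26.3 RPKM (SD, n = 3), ahead of Mrpl12 with 195 ± 15.2 and Mrpl30 with 179 ± 19.96, the last of which did not differ from each other beyond their spread. In chow kidney Mrpl12 with 203 ± 23.2 and Mrps21 with 198 ± 16.5 were level within their spread, and Mrps6 followed with 145 ± 30.1. Mrpl12 led in chow liver too, with 80.5 ± 7.03, before Mrpl52 with 57.2 ± 1.56 and Mrpl14 with 52.8 ± 2.74.

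At the low end, Mrps25 and Mrpl19 were among the last 3 in every organ, with 4.19 ± 0.426 and 7.07 ± 1.09 RPKM in chow heart, 4.83 ± 0.263 and 4.59 ± 0.286 in chow kidney and 1.21 ± 0.0453 and 2.75 ± 0.0988 in chow liver. These genes have 6065 and 4996 exonic bases in the annotation, far over the median, and if shorter forms are made the level per length is understated. Mrpl17 with 6.82 ± 0.0573 in heart, Mrpl35 with 7.63 ± 0.811 in kidney and Mrpl41 with 5.16 ± 0.419 in liver completed the lowest 3. In liver the diet moved Mrpl33 from rank 23 of 76 to rank 5 and Mrps18c from 19 to 9, while Mrps18b went from 28 to 44. Over all 76 genes the rank order on chow correlated between heart and kidney at a Spearman's rho of 0.88, between kidney and liver at 0.75 and between heart and liver at 0.69.

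Between organs on chow, many genes differed, and part of the directions depended on how organs were scaled to each other. With TMM scaling 54 were higher and 6 lower in heart than in kidney (background 35.3 and 38.4%), 48 and 12 in heart against liver (40.5 and 37.8%), and 32 and 31 in kidney against liver (41.5 and 34.9%). With total-count scaling the counts were 29 and 18 (background 24.1 and 52.6%), 69 and 3 (56.6 and 23.8%) and 69 and 3 (74.5 and 13.0%), and the median of all genes moved from -0.05 to -0.44, from 0.05 to 0.62 and from 0.11 to 1.07. Of the genes that passed with TMM, 41 of the 54 higher and all 6 lower in heart than in kidney kept their direction with total counts, as did all 48 higher and 5 of the 12 lower in heart than in liver. All 32 genes higher in kidney than in liver kept it, but only 6 of the 31 lower ones. The genes named next passed in the same direction under both scalings.

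Mrpl42 stood at 212, 187 and 178 CPM in chow heart, at 68.6, 67.3 and 64.4 CPM in chow kidney and at 33.6, 36.2 and 34.8 CPM in chow liver, on the scale shared by all organs. The differences on the log2 scale were 1.53 (SE 0.085) from kidney and 2.46 (SE 0.089) from liver with TMM, and 1.14 and 3.04 with total counts. Mrps23 had the same order, with 121 ± 7.69, 39.8 ± 3.41 and 23.8 ± 0.558 CPM (SD, n = 3 each). Mrps36, which bears a ribosomal name but is known as a part of the 2-oxoglutarate dehydrogenase complex of the citric acid cycle, stood at 48.4 ± 2.80, 27.5 ± 2.53 and 8.37 ± 0.345 CPM. Mrpl55 was higher in heart than in kidney as well, with 54.0 ± 3.01 against 19.3 ± 0.932 CPM.

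Other genes had another order of the organs. Mrps18b stood highest in liver, at 39.4, 33.4 and 37.1 CPM, against 15.9, 17.2 and 12.2 CPM in chow heart and 11.4, 12.3 and 12.0 CPM in chow kidney, with log2 differences of -1.28 (SE 0.12) for heart minus liver and -1.62 (SE 0.12) for kidney minus liver (-0.71 and -0.67 with total counts). Mrps6 stood highest in kidney, at 78.6, 70.2 and 102 CPM, against 11.8, 11.8 and 12.7 CPM in liver and 27.1, 26.2 and 56.8 CPM in heart. Its neighbour Slc5a3 had 389 to 741 CPM in the 6 kidney libraries and at most 24.5 CPM in liver, so the shared bases could lend Mrps6 reads there. Mrps27 and Mrps31 stood lower in kidney than in liver, with log2 differences of -1.32 and -1.21 for kidney minus liver (-0.37 and -0.25 with total counts). Their heart and liver libraries overlapped on chow with TMM. Mrps27 stood at 45.8, 43.4 and 35.3 CPM in heart against 49.1, 47.3 and 42.6 CPM in liver. Mrps31 stood at 37.3, 36.7 and 29.1 CPM against 35.6, 34.7 and 34.6 CPM. Mrps10 and Mrpl38 stood lower in heart than in liver, with -1.005 and -0.76 for heart minus liver (-0.43 and -0.19 with total counts). Mrpl20 and Mrpl50 stood lower in heart than in kidney, with log2 differences of -0.83 (SE 0.11) and -0.56 (SE 0.084).

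Other genes that build or serve the mitochondrial ribosome were followed from lists of known members. Of 7 further ribosomal proteins without an Mrpl or Mrps number, 5 were higher in liver and none lower. Over all tested genes 24.3% passed as higher and 23.3% as lower in liver, and 12.5 and 12.2% in heart, which are the shares to set beside the counts of this and the following lists. Chchd1, a protein of the small subunit, stood at 30.7, 29.4 and 22.97 CPM on the ketogenic diet and at 11.1, 11.5 and 9.84 CPM on chow in liver (log2 fold change 1.36, SE 0.12, edgeR adjusted p = 7.95e-06). In heart it stood at 29.1, 27.0 and 31.2 CPM against 45.9, 40.7 and 39.0 CPM (log2 fold change -0.52, SE 0.088, edgeR adjusted p = 0.00418), the pattern of the 6 genes above. Mrp63 and Ptcd3 rose in liver by 0.64 (SE 0.12) and 0.41 (SE 0.089), and Dap3, a GTP-binding protein of the small subunit, did not pass in edgeR in any organ.

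Of 23 tested assembly factors 10 were higher and none lower in liver, with the GTPase Gtpbp10 (log2 fold change 0.95, SE 0.097), the RNA-binding Fastkd2 (0.93, SE 0.12) and the ribosome biogenesis factor Mterfd1 (0.88, SE 0.11) at the smallest adjusted p. In heart 1 was higher (Fastk, 0.31) and 2 lower (Mpv17l2, -0.59, and the rRNA methyltransferase Rnmtl1, -0.45), and in kidney none passed in edgeR (at an unadjusted p under 0.05, 3, all higher; by DESeq2, 0). Of 15 translation factors 6 were higher and 3 lower in liver, the latter near the background of 23.3%. The release factor Mtrf1 rose by 1.16 (SE 0.12) and the initiation factors Mtif3 and Mtif2 by 0.53 (SE 0.083) and 0.41 (SE 0.076), while the elongation factor Tufm fell from 123, 109 and 113 CPM to 81.8, 85.0 and 91.0 CPM (log2 fold change -0.42, SE 0.080, edgeR adjusted p = 0.00131). In heart Gfm2, which recycles the ribosome, was the 1 of 15 to pass, with 0.44 (SE 0.10).

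Of 20 mitochondrial aminoacyl-tRNA synthetases and related enzymes, 5 were higher and 4 lower in liver, 5 higher and 1 lower in heart, and 1 higher in kidney (Rars2, log2 fold change 0.41, SE 0.071), so that both liver counts lay near the background of 24.3 and 23.3%. In liver the amidotransferase subunit Pet112l (0.89, SE 0.092), Hars2 (0.75, SE 0.098) and Nars2 (0.82, SE 0.12) led, and in heart Pet112l (0.59, SE 0.10) and Vars2 (0.40, SE 0.086) rose while Lars2 fell (-1.20, SE 0.12). Vars2 went the other way in liver, with -0.44 (SE 0.081). Genes that copy and transcribe mitochondrial DNA were 5 higher and 3 lower of 10 in liver (background 24.3 and 23.3%), and 4 higher and none lower in heart (background 12.5 and 12.2%). The transcription factor Tfb2m rose in both, by 0.32 (SE 0.088) and 0.60 (SE 0.091), whereas the RNA polymerase Polrmt fell in liver (-0.39, SE 0.097) and rose in heart (0.30, SE 0.083), and so did the helicase Peo1 (-0.29, SE 0.088, and 0.57, SE 0.071). Tfam, which packages mitochondrial DNA, rose in liver by 0.30 (SE 0.082), and the RNA-stabilizing Lrpprc did not pass in edgeR in any organ, while DESeq2 called it higher in heart (0.40, adjusted p = 0.0282).

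Of the 11 transcriptional regulators 1 was higher and 2 were lower in liver (background 24.3 and 23.3%), with a median log2 fold change of 0.06, and 2 were higher and 1 lower in heart (background 12.5 and 12.2%). In liver Ppargc1a (PGC-1α) was lower, at 6.83, 7.58 and 11.6 CPM on the ketogenic diet and 13.1, 20.1 and 13.1 CPM on chow (log2 fold change -0.84, SE 0.25, edgeR adjusted p = 0.0266). Esrra (ERRα) was higher there, at 32.9, 29.1 and 30.4 CPM against 20.8, 23.2 and 25.7 CPM (log2 fold change 0.41, SE 0.098, edgeR adjusted p = 0.00552). Nrf1 and Gabpa stood within the spread of the libraries in liver, with 0.06 (SE 0.11) and 0.03 (SE 0.076), and Gabpb2 was lower (-0.32, SE 0.085). In heart Ppargc1a stood at 151, 158 and 176 CPM against 121, 132 and 109 CPM (log2 fold change 0.42, SE 0.091, edgeR adjusted p = 0.0117), and Ppargc1b (PGC-1β) rose by 0.47 (SE 0.12), while Gabpb1 fell (-0.44, SE 0.13). Of the 11 regulators none passed in kidney in edgeR (at an unadjusted p under 0.05, 1 higher and 1 lower; by DESeq2, 0). Myc did not pass in edgeR in any organ with all libraries, at a liver value of -2.11 (SE 0.84, edgeR adjusted p = 0.108), while DESeq2 called it lower in liver (adjusted p = 0.0198). Chow replicate 2 stood high for Myc, with 20.8 CPM against 1.35 to 5.23 CPM in the other 5 liver libraries, and without it the value was -1.05 (edgeR adjusted p = 0.0162).

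Over the windows of 300 bases of the 67 genes matched to RefSeq's table, the letters searched for were counted in genes that rose in liver and in the others. The ETS letters were in 17 of 45 matched genes that rose in liver and in 7 of the other 22, the YY1 letters in 8 and 4, and the NRF-1 core in 4 and 4. No test was made of these counts.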

How the data were processed

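RNA of 18 libraries from mouse heart, kidney and liver was sequenced from a stranded library kit, and the labels accept RNA with an integrity number above 4. The deposited files hold estimated counts per gene: per the file headers, featureCounts 1.5.0 counted read pairs over exons of the UCSC mm9 genes with strand setting 2, a minimum mapping quality of 2, and fractions for reads with several places or genes, which can divide reads of near-identical copies. Per the submitters' processing notes, HISAT2 2.1.0 was used, with bcl2fastq and SAMtools. Genes with fractional counts held 46.2 to 72.1% of the counts of a library, and rounding to whole counts changed totals by at most 0.000870%.

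Within each organ, genes kept by filterByExpr were scaled by TMM and tested with edgeR 4.0.16 in R 4.3.3 (quasi-likelihood, robust, no covariates), with Benjamini-Hochberg adjustment over all genes tested and a threshold of 0.05. All 76 genes passed this filter in each organ. Differences between organs and chow levels came from a model of all 18 libraries with 6 groups. Alternatives were DESeq2 1.42.0, limma-voom (limma 3.58.1), other scalings and filters, a replicate block, ketogenic replicates 1 and 2 summed, and each library left out. Another was removal of a lowess trend (span 0.3) on log2 exon length from each library. That trend was fitted to the deviation of a library's log2 CPM from the mean of its organ over both diets. A diet difference that moves with length is therefore removed with it. The script was tested on simulated counts. P-values measure the spread between libraries numbered as biological replicates, and the labels do not say whether these were separate animals.

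The members and gene lists were chosen with earlier results of these data known. Named were, per organ, the 6 members with the smallest adjusted p in each direction, the 5 with the smallest p per difference between organs, the 3 highest and 3 lowest per length, the 3 largest chow differences each way, the Mrps18 forms, fixed regulators, and up to 3 genes per list. Mrpl14, Mrpl20, Mrpl11 and Mrpl12 in liver, Mrpl46, Mrps11, Mrpl38, Mrps36 (diet), Mrps6 in heart, Mrps25 in kidney, Ccdc142 and Slc5a3 were named after their values were seen. Promoter letters come from RefSeq on GRCm38 and were matched by symbol, while counts are on mm9. Genes of mitochondrial DNA were not analysed here.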

Additional observations from a re-analysis of the deposited data

Results flagged for a closer look

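The effect of the diet on 6 genes differed between liver and another organ by a test of the difference itself, in the edgeR model of all 18 libraries. For heart minus liver the log2 differences were -1.99 for Mrpl33, -1.83 for Mrpl53, -1.59 for Mrpl41, -1.07 for Mrpl50 and -1.06 for Mrps24. For kidney minus liver they were -1.84 for Mrpl33, -1.53 for Mrpl53, -1.49 for Mrpl41, -1.17 for Mrps18c and -1.001 for Mrps24. In each case the gene was higher on the ketogenic diet in the liver, with all 3 ketogenic above all 3 chow libraries. All 10 differences passed with the length trend removed, with ketogenic replicates 1 and 2 summed, by DESeq2 and with any 1 library left out.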

How the results depend on the processing

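The liver rise kept its direction and lay within 1.5 times of its count of 52 under every alternative run except removal of the length trend, which gave 29 higher and 14 lower. Of the named genes in liver, Mrpl52 turned direction there, from 0.54 to -0.1722 on the log2 scale (edgeR adjusted p = 0.105). The same setting gave 3 higher and 1 lower in heart, 1 lower in kidney, 10 higher and 23 lower for heart minus liver, and 9 higher and 21 lower for kidney minus liver. Total-count scaling gave 25 lower in heart, 3 lower in kidney, 0 higher for heart minus liver and 3 higher for kidney minus liver; on chow it gave 29 higher and 18 lower for heart minus kidney, 3 lower for heart minus liver, and 69 higher and 3 lower for kidney minus liver. Summing ketogenic replicates 1 and 2 gave 3 lower in heart, 1 lower in liver and 0 higher for heart minus liver, where DESeq2 gave 4 higher. One gene was lower in kidney with RLE scaling and 1 with the stricter filter (CPM of 1 in 3 libraries). Shares over all genes were counted for only some of these settings. The cause of these shifts was not tested, beyond the smaller number of libraries in the summed fit.

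Leaving out each library in turn gave 43 to 55 higher and 0 to 2 lower in liver, 0 to 1 higher and 2 to 17 lower in heart, and 0 to 2 higher and 0 to 3 lower in kidney. For heart minus liver it gave 0 to 4 higher and 34 to 47 lower, for kidney minus liver 3 to 5 higher and 37 to 45 lower, and for heart minus kidney 0 higher and 0 to 1 lower, the latter without heart chow replicate 3. For these differences between organs, shares over all genes were not counted with a library left out.

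Same-numbered libraries of the 2 diets within an organ did not deviate together (correlations of -0.176 to 0.112), so the numbers do not pair the diets. Whether organs of a diet came from the same animals is not known and was not checked. The main model of all 18 libraries treated them as independent. A replicate block joins same-numbered libraries of both diets, so it does not model organs of the same animal and cannot decide this. With that block, 52 genes were higher and 3 lower in liver, 0 and 4 in heart, and 1 and 0 in kidney. In the block fit heart minus liver gave 2 higher and 43 lower, and kidney minus liver 5 and 41. Shares over all genes were not counted in the block fits. Each gene had 125 counts or more in each library, so low depth removed none of the 76, and with 3 libraries a group small differences could be missed.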
